A study of Mus musculus with 24 samples.

Results

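Autophagy is the route by which a cell wraps cytoplasm, organelles or protein aggregates in a double membrane and delivers them to the lysosome. The genes described here are 42 genes of this pathway, taken by gene name from a list of pathway genes and found among 55487 genes in the count table. All 42 had enough reads to be tested, among 15828 genes tested in all. They were divided by role into 5 genes of the initiation kinase complex, 7 of the lipid kinase complexes and their regulators, 7 of membrane supply and phosphoinositide effectors, 11 of the conjugation machinery, 5 of the ATG8 family and 7 cargo receptors. The genes and roles were chosen with earlier results of these data known. Shares set beside those of all genes are therefore descriptions and not tests.

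The libraries came from bulk mRNA of mouse embryonic fibroblasts (MEFs), cultured cells derived from mouse embryos. Wild-type (WT) cells and cells labelled AMPK KO were each given DMSO as the vehicle control, MK-8722 (MK8722 in the labels), a direct activator of AMP-activated protein kinase (AMPK), or torin1 (Torin-1 in the labels), an inhibitor of the kinase MTOR. Each of the 6 groups held 4 libraries, each from a different passage of the culture, which made 24 libraries. The study asked which transcriptional responses to the 2 drugs need AMPK. The knockout cells were made to lack both catalytic subunits of AMPK, PRKAA1 and PRKAA2, and each genotype was 1 cell line that another laboratory had supplied. WT libraries came from passages 12 to 15 and AMPK KO libraries from passages 16 to 19, so that genotype, line and passage cannot be told apart. P-values measure the spread between these libraries, which were separate passages of 1 line and not separate animals.

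When nutrients or energy run low, the ULK kinase complex is released from inhibition by MTOR and is also a substrate of AMPK. It recruits the lipid kinase VPS34 with Beclin 1, which marks the forming membrane with a phosphoinositide. Scramblases, lipid-transfer proteins and WIPI proteins then enlarge the membrane, a ubiquitin-like conjugation system attaches ATG8 proteins to it, and receptors tie selected cargo to those ATG8 proteins. The transcription factors TFEB and TFE3, which bind E-box sequences, drive many genes of lysosomes and autophagy when MTOR does not hold them in the cytoplasm.

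Depth was even, at 26900240 to 34192685 counts per library (median 30764063), RNA integrity numbers were 9.7 to 10, and all libraries carried the same batch label. Libraries labelled AMPK KO still held reads of Prkaa1 and Prkaa2, at 70.9 against 80.9 CPM (counts scaled to the size of the library) and 3.21 against 4.74 CPM in the DMSO groups, so that gene counts do not check the genotype label. Fibroblast markers were present in both lines except Thy1, which was low (1.30 CPM in WT DMSO and 0.196 CPM in AMPK KO DMSO). Of the markers, 7 of 7 (Col1a1, Col1a2, Col3a1, Vim, Pdgfrb, Thy1 and Fn1) were lower in AMPK KO DMSO than in WT DMSO, with Col1a2 at 28.4 against 2503 CPM. Summed over the 7, the libraries ranged from 4767 to 6831 CPM in the 3 AMPK KO groups and from 11094 to 17094 CPM in the 3 WT groups. Markers of other cells were low: 4 epithelial ones summed to at most 6.87 CPM in any library, 3 blood and macrophage ones to at most 4.09 CPM with Adgre1 at 0, and 3 endothelial ones to at most 8.49 CPM. The epithelial sum averaged 3.93 CPM in AMPK KO DMSO and 1.92 CPM in WT DMSO. The endothelial sum was mostly Kdr, at 0.888 CPM in WT DMSO and 6.53 CPM in WT MK-8722, while Pecam1 (0.0608 and 0.101 CPM) and Cdh5 (0.00785 and 0.00831 CPM) stayed near 0. The part of these differences in the results that follow was not tested. In bulk RNA, fewer cells of a kind and less RNA per cell cannot be told apart.

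In untreated WT cells the ATG8 family and the receptors were the most abundant of these transcripts and the conjugation enzymes the least. Levels of different genes were compared in TPM, which scale reads to transcript length and to the total of the library. In WT DMSO, Gabarap, an ATG8 protein of late autophagosome growth, stood first at 258 ± 18.6 TPM (SD, n = 4). Sqstm1, which encodes the ubiquitin-binding receptor p62, came next at 255.1 ± 36.5 TPM and did not differ from Gabarap beyond that spread. Bnip3l, a mitophagy receptor also known as NIX, followed at 171 ± 10.7 TPM, and Becn1, which encodes Beclin 1, at 106.1 ± 7.05 TPM. At the other end were Atg9b, a scramblase paralog with a narrow tissue range, at 0.473 ± 0.0603 TPM, and Atg10, the E2-like enzyme that joins ATG12 to ATG5, at 2.28 ± 0.510 TPM. The median TPM by role was 88.1 for the ATG8 family, 43.4 for the receptors, 35.6 for initiation, 24.1 for membrane supply, 15.9 for the lipid kinase group and 11.9 for conjugation.

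**Figure D1:**
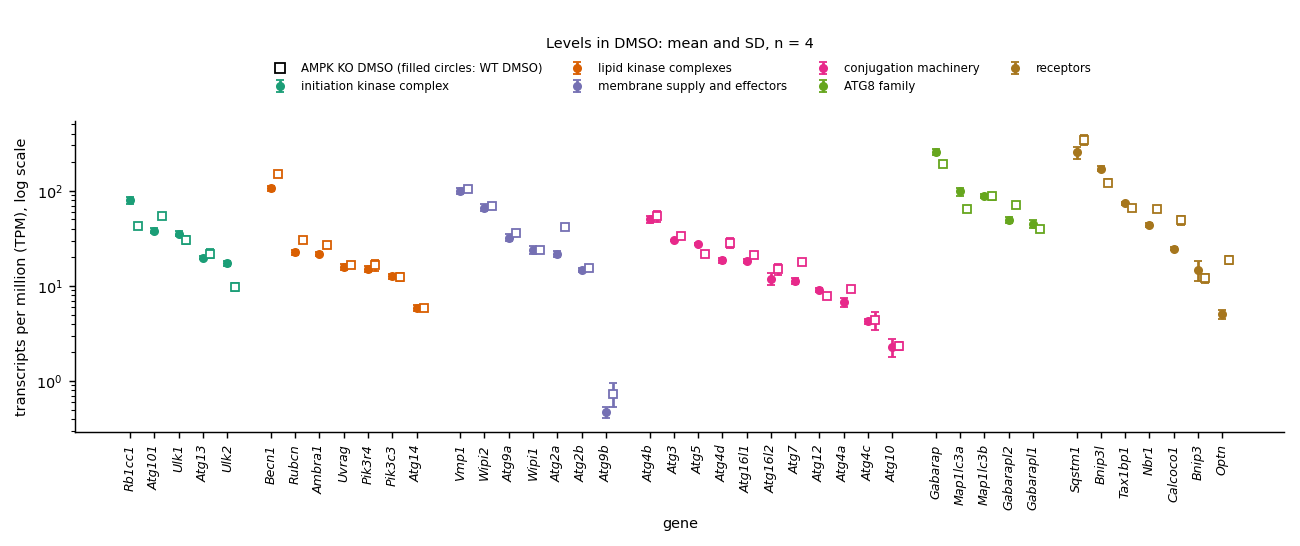
Level of each of the 42 genes in TPM (log axis) by role, in WT DMSO (filled circles) and AMPK KO DMSO (open squares), with the mean and SD of 4 libraries. Gabarap and Sqstm1 lie highest in WT DMSO at 258 and 255.1 TPM and Atg9b lowest at 0.473 TPM, while Optn stands at 5.04 TPM in WT DMSO and 18.9 TPM in AMPK KO DMSO. TPM lack the scaling between libraries used in the tests, so the genotypes are compared by counts in the text.

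Promoter sequence was available for 35 of the 42 genes, as RefSeq windows of 300 bases around the annotated start on GRCm38.p6. Rb1cc1, Becn1, Pik3c3, Atg12, Atg16l1, Map1lc3a and Bnip3l had no window. The E-box CACGTG, which reads the same on both strands, was found in the windows of 6 of the 35 genes (17.1%), against 2187 of 27025 genes with a window (8.09%). Its longer form TCACGTGA, which contains the shorter one, was found for 1 of the 35 (2.86%) and for 304 of all genes (1.12%). The 7 sites are shown because this is the core letter pattern of the sequences that TFEB and TFE3 bind, and because the genes that carry it differed in response, as given with each gene further on. Each line gives 50 bases on the strand of the gene, with the E-box in capitals and the distance from its first letter to the RefSeq start of that window. For Atg14, Atg7 and Rubcn that start lies 2215, 27999 and 9400 bases inside the gene as annotated for the counts, and for Atg3, Atg5 and Bnip3 within 44 bases of its 5′ end.
Atg14 (chr14:47568408-47568457, minus strand, across the start, with 1 letter upstream): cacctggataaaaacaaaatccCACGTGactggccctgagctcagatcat
Atg3 (chr16:45158713-45158762, plus strand, 94 bases upstream): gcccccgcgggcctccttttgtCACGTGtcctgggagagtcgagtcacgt
Atg3, second site (chr16:45158736-45158785, plus strand, 71 bases upstream, the longer form): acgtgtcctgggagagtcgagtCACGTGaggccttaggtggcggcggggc
Atg5 (chr10:44268303-44268352, plus strand, 14 bases upstream): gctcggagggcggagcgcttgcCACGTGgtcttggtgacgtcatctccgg
Atg7 (chr6:114670942-114670991, plus strand, 132 bases upstream): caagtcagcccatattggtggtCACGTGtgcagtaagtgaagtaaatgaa
Bnip3 (chr7:138909587-138909636, minus strand, 108 bases upstream): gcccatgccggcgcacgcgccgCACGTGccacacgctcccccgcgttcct
Rubcn (chr16:32868427-32868476, minus strand, 88 bases upstream): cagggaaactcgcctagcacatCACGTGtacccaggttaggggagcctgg
A match describes these letters in this window and not a bound site. The receptors and ATG8 genes with the largest responses to MK-8722 in WT cells, among them Sqstm1, Optn, Calcoco1 and Map1lc3b, had windows without the motif, which says nothing of sequence elsewhere in those genes.

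In WT cells, 7 of the 11 genes that rose with MK-8722 were receptors or ATG8 genes. Calls needed an adjusted p under 0.05 in edgeR's quasi-likelihood test (Benjamini-Hochberg over all genes tested) together with a fold change of 1.2 or more. By that rule 11 of the 42 genes rose and 1 fell, which is 26.2% and 2.38% of them, against 9.96% higher and 5.6% lower over all genes tested. The median log2 fold change was 0.12 over the 42 and -0.00 over all genes. Of 7 receptors, 4 rose (Sqstm1, Optn, Calcoco1 and Bnip3) and all 7 had positive fold changes, with a median of 0.44. Of 5 ATG8 genes, 3 rose (Map1lc3b, Gabarap and Gabarapl1), with a median of 0.46. The initiation group gave 1 call (Rb1cc1, median 0.03), the lipid kinase group 1 (Uvrag, median 0.12) and conjugation 3, with Atg3 and Atg4c higher and Atg5 lower (median 0.05). None of the 7 membrane supply genes was called by edgeR or by DESeq2, although 3 had an unadjusted p under 0.05. At 2 of these calls 1 library decided the outcome: Bnip3 had an adjusted p of 0.051 without WT MK-8722 replicate 4, and the fall of Atg5 dropped under the fold limit without WT DMSO replicate 4 (log2 -0.26) or WT MK-8722 replicate 4 (log2 -0.25).

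With the same drug, 1 of the 42 genes was called in the libraries labelled AMPK KO. It was Ulk1, the kinase that starts autophagosome formation, which fell by 0.36 on the log2 scale. None was higher, by edgeR or by DESeq2, and the shares were 0% higher and 2.38% lower against 0.809% and 0.651% over all genes tested. The median log2 fold change was -0.05, with 0.00 over all genes, and 17 of the 42 had an unadjusted p under 0.05. All 5 initiation genes had negative fold changes with an unadjusted p under 0.05, from -0.36 to -0.14, with a median of -0.24. The receptors had a median of -0.15 and the ATG8 family of -0.04, and 1 of those 12 genes, Sqstm1, had a positive value. The count rested on few libraries: with passage as a block it was 2, with Bnip3 lower at a log2 fold change of -0.34 (adjusted p = 0.0053 by edgeR), without AMPK KO MK-8722 replicate 2 it was 6 (Ulk2, Atg13, Atg101, Nbr1 and Calcoco1 also lower), and without AMPK KO DMSO replicate 2 it was 3.

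Whether MK-8722 acted differently in the 2 genotypes was tested directly, as an interaction. For 14 of the 42 genes the response was lower in AMPK KO than in WT and for 2 it was higher, which is 33.3% and 4.76%, against 7.56% and 5.05% over all genes tested. The median difference was -0.19 over the 42 on the log2 scale and 0.00 over all genes. It was lower for 6 of 7 receptors, the exception being Bnip3l (log2 difference -0.17, adjusted p = 0.056), and the median over the receptors was -0.76. It was lower for 4 of 5 ATG8 genes (median -0.49), the exception being Map1lc3a at -0.01. Initiation gave 2 lower (Ulk2 and Rb1cc1, median -0.29) and the lipid kinase group 2 lower (Pik3c3 and Uvrag, median -0.08). The 2 genes with a higher response in AMPK KO were Wipi2 and Atg5. With passage as a block 16 were lower, Atg13 (-0.29, adjusted p = 0.024) and Atg14 (-0.31, adjusted p = 0.016) being added. Tax1bp1 lost its call in 7 of 16 fits that left out 1 library and Gabarapl2 in 5 of 16. By DESeq2, 5 of 7 receptors and 3 initiation genes had a lower response, and the other roles gave the counts of edgeR.

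Torin1 gave calls in both directions and in both genotypes. In WT cells 17 of the 42 rose and 7 fell, which is 40.5% and 16.7%, against 26.5% and 21.1% over all genes tested, and the median log2 fold change was 0.08, with 0.04 over all genes. Of 7 receptors 4 rose (Sqstm1, Nbr1, Optn and Calcoco1) and 6 had positive fold changes (median 0.65). Initiation gave 3 of 5 higher (Ulk2, Atg13 and Rb1cc1, median 0.29), the lipid kinase group 3 higher and 1 lower (Pik3c3, Pik3r4 and Atg14 against Becn1), membrane supply 2 higher and 2 lower (Atg2a and Wipi1 against Atg2b and Atg9a) and the ATG8 family 2 of 5 higher (Map1lc3b and Gabarap). Conjugation was mixed, with Atg10, Atg12 and Atg16l2 higher and Atg4a, Atg4d, Atg5 and Atg16l1 lower (median 0.08).

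In AMPK KO cells torin1 raised 18 of the 42 genes and lowered 5, which is 42.9% and 11.9%, against 25.8% and 17.5% over all genes tested. The median log2 fold change was 0.21, with 0.06 over all genes. These libraries were independent of the WT ones, and 16 genes rose in both, which is 94.1% of the 17 in WT and 88.9% of the 18 in AMPK KO. The matching overlap over all genes tested, for rises or falls, was not computed, so whether it is larger here is not known. Atg12 was called in WT and not in AMPK KO, and Atg4c and Tax1bp1 in AMPK KO and not in WT. All 5 genes that fell in AMPK KO (Becn1, Atg4a, Atg4d, Atg5 and Atg16l1) were among the 7 that fell in WT (71.4%), the other two being Atg2b and Atg9a. Of the receptors 5 of 7 rose (median 0.60), and initiation had 3 of 5 higher (median 0.48). Calls with a fold just over the limit were less firm: leaving out 1 library at a time ended the call of Pik3r4 in 4 of 8 fits in WT and 7 of 8 in AMPK KO, of Atg13 in 2 of 8 in WT, and of Atg2a and Atg4c in 4 and 6 of 8 in AMPK KO.

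The torin1 response differed between the genotypes for 1 of the 42 genes, Ulk2, which rose more in AMPK KO. The shares were 2.38% with a higher response and 0% with a lower one, against 4.19% and 2.93% over all genes tested, with a median difference of 0.05 on the log2 scale and 0.01 over all genes. At an unadjusted p under 0.05 there were 13 genes, and DESeq2 called 2, with Atg16l2 lower beside Ulk2 higher. All 5 initiation genes had positive differences, from 0.19 to 0.35 with a median of 0.21, and 4 of them had an unadjusted p under 0.05. The call of Ulk2 was lost in 5 of 16 fits that left out 1 library, with an adjusted p of up to 0.092 by edgeR, and when libraries were scaled by their total counts alone (adjusted p = 0.06).

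**Figure D2:**
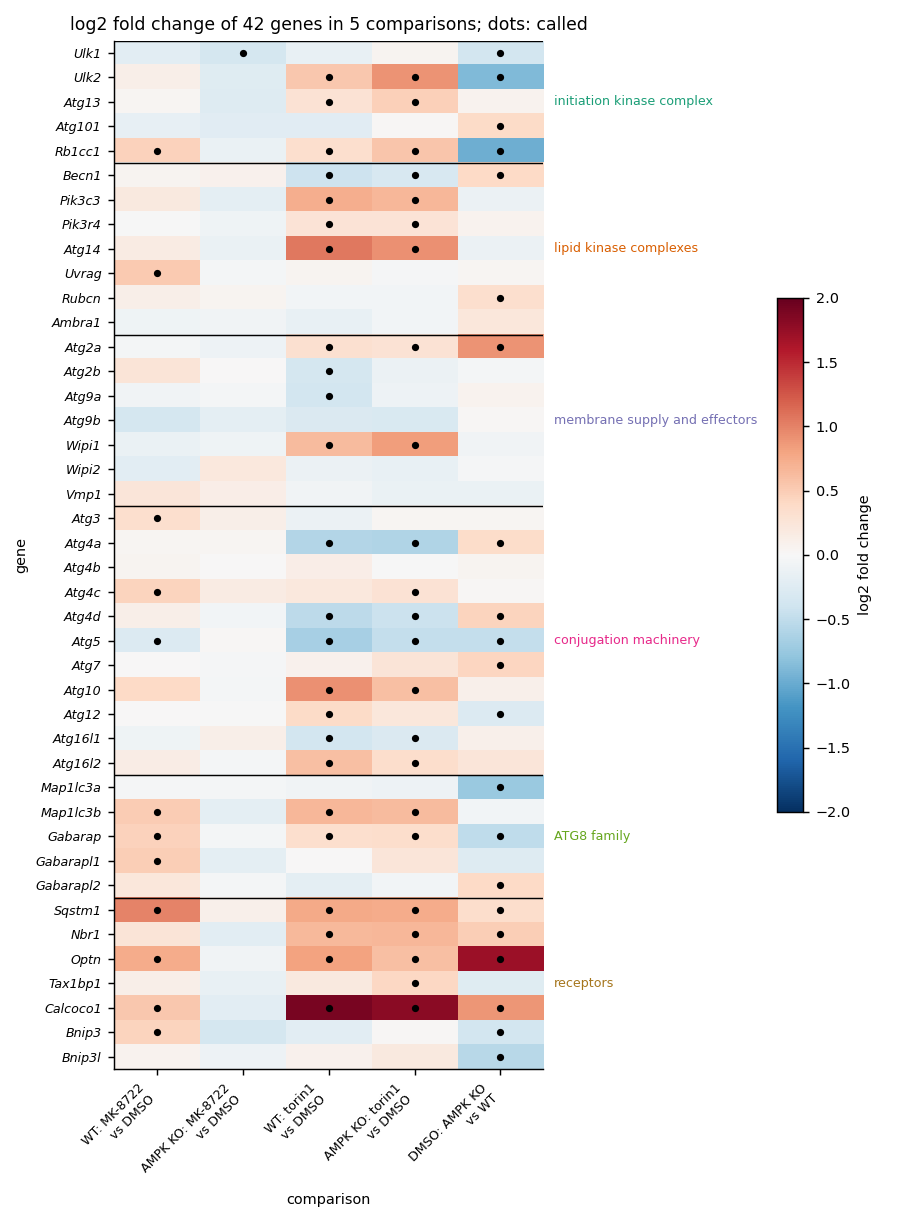
Heat map of log2 fold changes of the 42 genes (rows, ordered by role) in 5 comparisons (columns), coloured from -2 to 2, with a dot where the gene passed both limits of the test. The receptor rows are positive in WT with MK-8722 and in AMPK KO with torin1, and 6 of the 7 are positive in WT with torin1 (Bnip3 is at -0.21), with Calcoco1 at 1.89 and 1.80 under torin1, and the AMPK KO MK-8722 column holds 1 dot, for Ulk1 at -0.36.

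**Figure D3:**
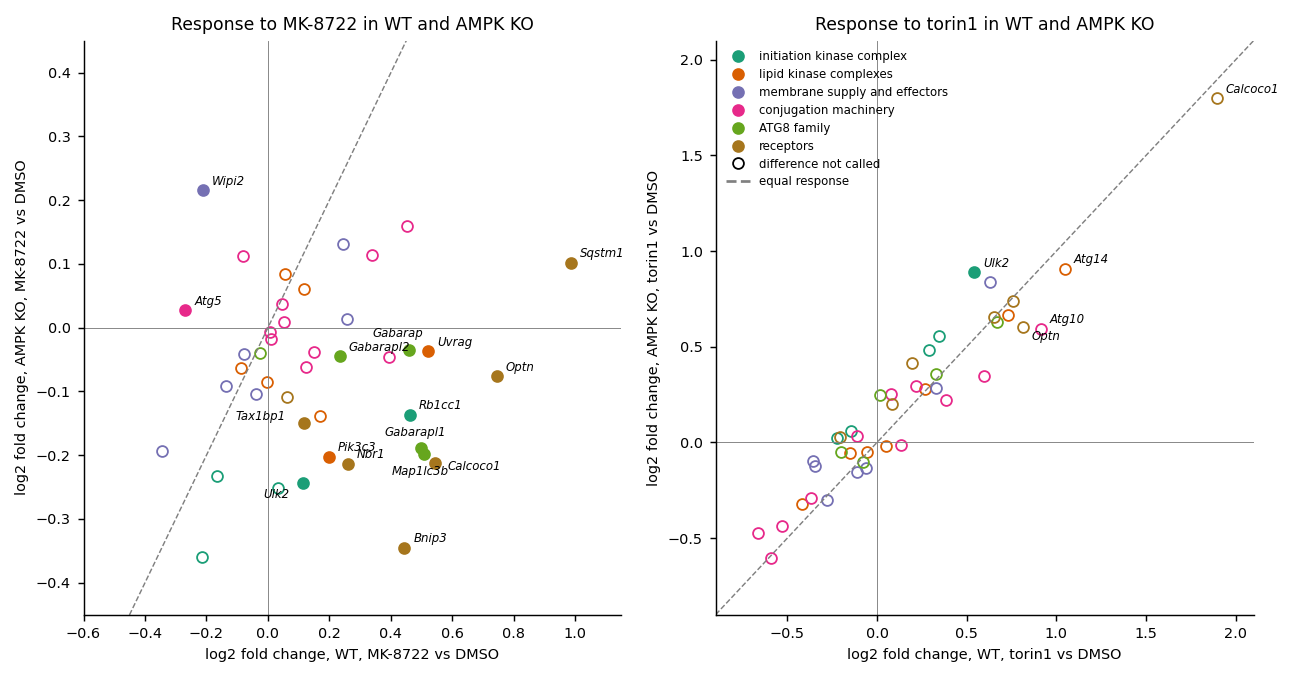
Log2 fold change against DMSO in WT (x axis) and in AMPK KO (y axis) for the 42 genes, with MK-8722 in one panel and torin1 in the other. Filled points mark genes whose response differed between genotypes and the dashed line marks equal responses. Under MK-8722, 14 filled points lie under the line and 2 over it, while under torin1 the 1 filled point is Ulk2, over the line at 0.89 in AMPK KO and 0.54 in WT.

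Without drug, AMPK KO cells differed from WT cells at 21 of the 42 genes. There were 12 higher and 9 lower, 28.6% and 21.4%, against 30.8% and 25.9% over all genes tested, so that the shares lay below the background in both directions. The median log2 difference was 0.04, with 0.02 over all genes. Optn, Atg2a, Calcoco1 and Nbr1 were the genes with the largest increases and Rb1cc1, Ulk2, Map1lc3a and Bnip3l those with the largest decreases. Receptors gave 4 higher and 2 lower (median 0.35), initiation 1 higher and 3 lower (median -0.37), ATG8 genes 1 higher and 2 lower (median -0.26), conjugation 3 higher and 2 lower (median 0.10), the lipid kinase group 2 higher (median 0.07) and membrane supply 1 higher (median -0.02). Scaling by total counts alone moved the median of all genes to 0.155, gave 14 higher and 6 lower, and ended the calls of Ulk1 (log2 -0.23), Atg12 (adjusted p = 0.058) and Bnip3 (adjusted p = 0.13).

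The initiation complex joins the kinases ULK1 or ULK2 to the scaffold FIP200, encoded by Rb1cc1, and to ATG13 and ATG101. Ulk1 (chr5:110784488-110810097, GRCm38, minus strand) stood at 98.0, 96.0, 88.6 and 88.1 CPM in WT DMSO, 76.9, 84.9, 77.7 and 79.6 in WT MK-8722, and 81.4, 93.7, 78.0 and 81.9 in WT torin1. AMPK KO libraries had 69.1, 71.0, 77.9 and 69.2 CPM in DMSO, 51.8, 64.2, 57.0 and 50.9 in MK-8722, and 76.4, 82.3, 70.4 and 70.4 in torin1. Every MK-8722 library lay below every DMSO library of its genotype. The log2 fold change was -0.22 in WT (SE 0.069, adjusted p = 0.02), under the fold limit, and -0.36 in AMPK KO (SE 0.069, adjusted p = 0.0063), and the difference between the genotypes did not pass the test (-0.14, adjusted p = 0.36). Torin1 left Ulk1 within the DMSO range or overlapping it in both genotypes, at -0.15 (adjusted p = 0.069) and 0.06 (adjusted p = 0.47).

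Ulk2 (chr11:61775649-61855073, minus strand) stood at 48.3, 48.7, 50.2 and 50.5 CPM in WT DMSO, 47.8, 55.4, 55.0 and 55.7 in WT MK-8722, and 72.3, 70.7, 71.2 and 73.5 in WT torin1. In AMPK KO the values were 26.4, 24.1, 30.5 and 26.5 CPM in DMSO, 21.1, 26.1, 20.9 and 22.7 in MK-8722, and 50.6, 48.0, 49.7 and 51.1 in torin1. The kinase transcript was thus lower in every AMPK KO DMSO library than in any WT DMSO library, and AMPK KO cells under torin1 reached the range of untreated WT cells. The baseline difference was -0.88 on the log2 scale (SE 0.065, adjusted p = 1e-11), the torin1 rise was 0.54 in WT and 0.89 in AMPK KO (adjusted p = 6e-08 and 3.4e-11), and the difference between those rises was 0.35 (SE 0.090, adjusted p = 0.015). Under MK-8722 the response differed by -0.36 (adjusted p = 0.0087), while neither response alone was called, at 0.11 in WT and -0.24 in AMPK KO (adjusted p = 0.2 and 0.05).

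Rb1cc1 (chr1:6206197-6276648, plus strand) stood at 140.1, 145, 139.7 and 129 CPM in WT DMSO, 221, 163, 187 and 192 in WT MK-8722, and 166, 174, 178 and 185 in WT torin1. Its AMPK KO values were 68.4, 67.7, 74.9 and 70.0 CPM in DMSO, 65.1, 62.5, 63.1 and 64.9 in MK-8722, and 104.6, 102.3, 100.6 and 105.2 in torin1. Every WT library was above every AMPK KO library. The scaffold gene rose with MK-8722 in WT (log2 0.46, SE 0.060, adjusted p = 2.1e-06) and not in AMPK KO (-0.14, adjusted p = 0.26), a difference of -0.60 (adjusted p = 2.2e-05), and it rose with torin1 in both (0.34 and 0.55). The adaptor gene Atg13 rose with torin1 by 0.29 in WT and 0.48 in AMPK KO, and Atg101 was called at baseline alone, higher in AMPK KO by 0.39 (adjusted p = 2.4e-05).

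The lipid kinase group holds the VPS34 kinase (Pik3c3), its regulatory subunit VPS15 (Pik3r4), Beclin 1 (Becn1), the partners Atg14 and Uvrag that direct it to autophagosomes or endosomes, and the regulators Rubcn and Ambra1. Becn1 (chr11:101285952-101302286, minus strand) stood at 89.0, 87.1, 89.0 and 93.4 CPM in WT DMSO, 93.7, 93.0, 90.8 and 94.9 in WT MK-8722, and 63.8, 66.6, 66.5 and 70.9 in WT torin1. For AMPK KO the values were 115, 118, 123 and 117 CPM in DMSO, 124, 133, 119.7 and 127 in MK-8722, and 96.9, 93.2, 94.0 and 94.99 in torin1. The torin1 libraries were the lowest of each genotype, with no overlap. The fall was 0.42 in WT and 0.32 in AMPK KO on the log2 scale (fold 0.747 and 0.798, adjusted p = 7e-10 and 5.9e-08), in the direction opposite to its partners Pik3c3, Pik3r4 and Atg14. At baseline the AMPK KO level was 1.32-fold that of WT (adjusted p = 5.7e-10).

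Atg14 (chr14:47540893-47570649, minus strand), whose RefSeq window holds an E-box across its start, stood at 13.2, 12.8, 12.9 and 15.1 CPM in WT DMSO, 16.8, 15.2, 13.6 and 14.9 in WT MK-8722, and 26.1, 27.2, 29.5 and 28.7 in WT torin1. In AMPK KO it stood at 11.8, 12.3, 12.7 and 13.0 CPM in DMSO, 10.96, 13.1, 10.4 and 10.8 in MK-8722, and 24.3, 22.4, 25.0 and 21.8 in torin1. Every torin1 library was above every other library, with no overlap. The rise was 2.07-fold in WT and 1.88-fold in AMPK KO (log2 1.05, SE 0.075, and 0.91, SE 0.075; adjusted p = 1.4e-11 and 2.8e-10), and the responses did not differ by the interaction test (-0.14, adjusted p = 0.48). Under MK-8722 the DMSO and drug ranges overlapped in both genotypes, and the difference between the responses was -0.31 (adjusted p = 0.058, or 0.016 with passage as a block).

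Uvrag (chr7:98885021-99141141, minus strand) showed the converse. It stood at 37.2, 33.0, 34.1 and 34.6 CPM in WT DMSO, 49.3, 52.9, 50.1 and 47.2 in WT MK-8722, and 37.7, 31.6, 37.2 and 37.7 in WT torin1. AMPK KO libraries had 36.3, 34.4, 34.7 and 36.8 CPM in DMSO, 35.1, 33.6, 34.9 and 35.2 in MK-8722, and 40.3, 27.1, 38.6 and 34.6 in torin1. The 4 WT MK-8722 libraries were above all other 20 libraries. The rise was 1.44-fold (log2 0.52, SE 0.081, adjusted p = 2.5e-05) and the response in AMPK KO was lower by 0.56 on the log2 scale (adjusted p = 0.0014). Of the other members of the group, Pik3c3 rose with torin1 by 0.73 in WT and 0.67 in AMPK KO, and Pik3r4 by 0.27 and 0.28. Pik3c3 also had a lower MK-8722 response in AMPK KO than in WT (log2 difference -0.4). Rubcn, an inhibitor of the UVRAG complex, was higher in AMPK KO DMSO by 0.33 (adjusted p = 1.8e-08), and Ambra1 was called in no comparison.

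Membrane supply rests on the scramblases ATG9A and VMP1, the lipid-transfer proteins ATG2A and ATG2B, and WIPI proteins that read the phosphoinositide. Atg2a (chr19:6241668-6262335, plus strand) stood at 83.1, 82.1, 75.6 and 73.9 CPM in WT DMSO and 146, 143, 150.5 and 145 in AMPK KO DMSO. The 2 DMSO groups did not overlap, at 1.86-fold (log2 0.89, SE 0.047, adjusted p = 1.4e-14). Torin1 brought it to 100.98, 103.9, 96.1 and 93.8 CPM in WT and to 170.3, 185, 178 and 178 in AMPK KO, rises of 0.33 and 0.28 on the log2 scale, while the MK-8722 means were 76.5 ± 1.48 and 136 ± 9.46 CPM (SD, n = 4) and were not called. Its paralog Atg2b went the other way under torin1 in WT, falling by 0.35 (adjusted p = 6e-09), with -0.12 in AMPK KO under the fold limit.

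Wipi1 (chr11:109573331-109611967, minus strand) stood at 35.5, 39.5, 35.2 and 41.5 CPM in WT DMSO, 31.2, 39.6, 33.1 and 34.2 in WT MK-8722, and 54.9, 59.0, 55.6 and 65.7 in WT torin1. Its AMPK KO values were 38.1, 33.4, 34.6 and 37.8 CPM in DMSO, 32.2, 34.3, 32.0 and 36.6 in MK-8722, and 62.5, 62.2, 66.7 and 66.1 in torin1. All 8 torin1 libraries were above all 16 others. The rise was 1.55-fold in WT and 1.79-fold in AMPK KO (adjusted p = 3.2e-08 and 3.8e-10), with a difference of 0.21 that did not pass the test (adjusted p = 0.21). Wipi2, its more abundant paralog by TPM, differed in its MK-8722 response by 0.43 (adjusted p = 0.00041), with -0.21 in WT and 0.22 in AMPK KO, both under the fold limit. Atg9a fell with torin1 in WT by 0.36 (adjusted p = 2.2e-06) and had -0.10 in AMPK KO (adjusted p = 0.11), and Vmp1 and Atg9b were called in no comparison with DMSO.

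The conjugation machinery comprises the ATG4 proteases that trim ATG8 proteins, the E1-like ATG7, the E2-like ATG3 and ATG10, and the ATG12, ATG5 and ATG16L1 conjugate that acts as the E3. Atg10 (chr13:90935356-91223968, minus strand) was low throughout, at 1.51, 1.32, 1.73 and 2.29 CPM in WT DMSO, 1.95, 1.90, 2.67 and 2.53 in WT MK-8722, and 2.97, 2.82, 3.37 and 3.81 in WT torin1. For AMPK KO the values were 2.09, 1.65, 1.68 and 1.95 CPM in DMSO, 1.72, 1.71, 1.68 and 2.03 in MK-8722, and 2.89, 2.40, 2.76 and 3.08 in torin1. Torin1 libraries were above DMSO libraries without overlap in both genotypes. The rise was 0.91 in WT (SE 0.16, adjusted p = 2.6e-05) and 0.59 in AMPK KO (SE 0.16, adjusted p = 0.0026).

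Atg5 (chr10:44268358-44364291, plus strand), with an E-box 14 bases upstream of its start, moved against Atg10. Its values were 38.0, 39.4, 40.7 and 40.3 CPM in WT DMSO, 33.9, 33.5, 33.0 and 31.1 in WT MK-8722, and 23.2, 24.5, 26.3 and 25.8 in WT torin1. In AMPK KO they were 28.8, 29.5, 28.2 and 28.02 CPM in DMSO, 28.8, 31.0, 28.2 and 28.7 in MK-8722, and 20.9, 20.4, 20.3 and 20.97 in torin1. Both drugs thus gave lower values than DMSO in WT without overlap, and torin1 did so in AMPK KO. The fall with torin1 was to 0.631-fold in WT (adjusted p = 4.9e-12), the baseline was lower in AMPK KO by 0.47 on the log2 scale (adjusted p = 1.1e-09), and the MK-8722 response was higher in AMPK KO by 0.30 (adjusted p = 0.002).

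The other conjugation genes split by drug. Torin1 lowered the proteases Atg4a (by 0.59 in WT and 0.60 in AMPK KO on the log2 scale) and Atg4d (by 0.53 and 0.44), and it lowered Atg16l1 (by 0.37 and 0.29), while the paralog Atg16l2 rose (0.60 and 0.35). With an offset for transcript length the AMPK KO value of Atg16l2 was 0.11 (adjusted p = 0.48). Atg3, which carries 2 E-boxes, rose with MK-8722 in WT by 0.34 (SE 0.054, adjusted p = 3.6e-05), and Atg4c by 0.45 (SE 0.11, adjusted p = 0.0036), although the Atg4c ranges overlapped. Atg12 rose with torin1 in WT by 0.38. Atg4b was called in no comparison. Atg7, which also has an E-box, was higher in AMPK KO DMSO by 0.42 (adjusted p = 7.5e-07) and was called with neither drug, so that the 6 genes with the motif included 1 that rose with torin1 (Atg14), 2 that rose with MK-8722 in WT (Atg3 and Bnip3), 1 that fell with both drugs in WT (Atg5), and 2 that were called with neither drug (Atg7 and Rubcn).

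ATG8 proteins are the ubiquitin-like tags of the autophagosome membrane, in an LC3 branch (Map1lc3a and Map1lc3b) and a GABARAP branch (Gabarap, Gabarapl1 and Gabarapl2). Map1lc3b (chr8:121590361-121598760, plus strand) stood at 89.5, 97.1, 87.3 and 88.0 CPM in WT DMSO, 131, 130.3, 126 and 128 in WT MK-8722, and 138, 141, 144 and 151 in WT torin1. In AMPK KO it stood at 84.1, 83.8, 93.8 and 86.6 CPM in DMSO, 76.3, 83.0, 71.5 and 72.8 in MK-8722, and 142, 124, 138 and 136 in torin1. Torin1 gave overlapping ranges in the 2 genotypes, whereas MK-8722 libraries lay above DMSO in WT and below DMSO in AMPK KO. The MK-8722 change was 0.51 in WT (SE 0.050, adjusted p = 3.4e-08) and -0.20 in AMPK KO (adjusted p = 0.036, under the fold limit), a difference of -0.71 (SE 0.071, adjusted p = 1.7e-07). The torin1 rise was 1.59-fold and 1.55-fold, with a difference of -0.04 (adjusted p = 0.82).

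In the GABARAP branch, Gabarap was at 152, 163, 159 and 135 CPM in WT DMSO, 233, 193, 206 and 206 in WT MK-8722, and 110.3, 104.8, 101.5 and 109.8 in AMPK KO DMSO. WT MK-8722 libraries were thus the highest of these groups and AMPK KO DMSO the lowest, with log2 differences from WT DMSO of 0.46 and -0.51 (adjusted p = 9.9e-07 and 1.5e-08). Torin1 raised it by 0.33 in WT and 0.36 in AMPK KO. Gabarapl1 was at 45.2, 41.7, 48.8 and 41.9 CPM in WT DMSO and 60.03, 58.3, 69.4 and 63.1 in WT MK-8722, a rise of 0.50 (adjusted p = 2.6e-06), and torin1 left it at 0.01 in WT (adjusted p = 0.87). Its MK-8722 response was lower in AMPK KO by 0.69 on the log2 scale (adjusted p = 1.2e-05). Gabarapl2 was higher in AMPK KO DMSO by 0.40 and Map1lc3a lower by 0.74, to 0.6-fold (adjusted p = 1.9e-09), and neither was called with a drug. Summed over the 5 genes, TPM came to 539.4 in WT DMSO, 711.5 in WT MK-8722 and 696.6 in WT torin1, and to 452.8, 426.6 and 598.4 in the AMPK KO groups.

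The largest response of the 42 genes to a drug was that of a receptor. Calcoco1 (chr15:102706777-102722178, minus strand), a receptor described for the endoplasmic reticulum and Golgi, stood at 36.8, 38.9, 37.8 and 42.7 CPM in WT DMSO, 53.2, 60.8, 57.2 and 56.4 in WT MK-8722, and 146, 143, 148 and 142 in WT torin1. AMPK KO libraries had 69.9, 66.2, 79.2 and 71.4 CPM in DMSO, 59.8, 69.7, 59.4 and 58.5 in MK-8722, and 249, 237, 266 and 247 in torin1. Each torin1 library was above every DMSO and MK-8722 library of its genotype. Torin1 raised it 3.72-fold in WT and 3.48-fold in AMPK KO (log2 1.89, SE 0.060, and 1.80, SE 0.058; adjusted p = 3.6e-17 and 4e-17), with no difference that passed the test (-0.09, adjusted p = 0.55). MK-8722 raised it 1.46-fold in WT (adjusted p = 2.6e-07), the AMPK KO value was -0.21 on the log2 scale (adjusted p = 0.053), and those responses differed by -0.76 (SE 0.085, adjusted p = 8.5e-07). At baseline AMPK KO was 1.84-fold higher (adjusted p = 2.7e-12).

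Sqstm1 (chr11:50199366-50210827, minus strand) varied between the libraries of a group. It stood at 240.1, 259.8, 240.1 and 329 CPM in WT DMSO, 511, 688, 461 and 459 in WT MK-8722, and 463, 409.8, 459 and 473 in WT torin1. Its AMPK KO values were 315, 332, 385 and 334 CPM in DMSO, 313, 488, 327 and 338 in MK-8722, and 601, 511, 607 and 561 in torin1. The highest library was the one of the earliest passage in 5 of the 6 groups, the exception being AMPK KO torin1. Compared within a passage, it went from 329 to 688 CPM at passage 12, 259.8 to 511 at passage 13, 240.1 to 459 at passage 14 and 240.1 to 461 at passage 15 in WT with MK-8722, so that each pair rose. In AMPK KO the same pairs were 385 to 488 at passage 16, 332 to 327 at passage 17, 334 to 338 at passage 18 and 315 to 313 at passage 19. The log2 fold change with MK-8722 was 0.99 in WT (SE 0.14, adjusted p = 2.4e-05) and 0.10 in AMPK KO (SE 0.14, adjusted p = 0.8), a difference of -0.88 (SE 0.20, adjusted p = 0.0043). With torin1 it was 0.76 and 0.74 (adjusted p = 1e-04 and 0.00015). The baseline difference of 1.28-fold (adjusted p = 0.032) was lost in 5 of 8 fits that left out 1 library, with an adjusted p of up to 0.14, and the ranges overlapped.

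Optn (chr2:5020642-5064051, minus strand) encodes optineurin, a ubiquitin-binding receptor of mitophagy and xenophagy. It stood at 7.69, 8.56, 7.20 and 7.66 CPM in WT DMSO, 14.3, 11.4, 13.8 and 12.7 in WT MK-8722, and 14.4, 12.1, 15.1 and 13.0 in WT torin1. For AMPK KO the values were 25.5, 22.7, 27.5 and 26.6 CPM in DMSO, 24.1, 23.9, 23.8 and 25.3 in MK-8722, and 38.6, 34.8, 40.3 and 41.6 in torin1. Every AMPK KO library was above every WT library, and in WT the ranges of the 2 drugs overlapped. The baseline difference was 3.29-fold (log2 1.72, SE 0.083, adjusted p = 2.6e-15), the largest of the 42. The WT rises were 1.68-fold with MK-8722 and 1.75-fold with torin1 (adjusted p = 4.2e-07 and 1.1e-08), torin1 raised it 1.52-fold in AMPK KO, and the MK-8722 response there was lower by 0.82 on the log2 scale (SE 0.12, adjusted p = 1.7e-05).

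Bnip3 (chr7:138890836-138909519, minus strand), a mitophagy receptor and a classical hypoxia target, stood at 13.1, 9.44, 12.2 and 9.01 CPM in WT DMSO, 13.5, 12.1, 16.2 and 17.5 in WT MK-8722, and 10.6, 8.88, 10.2 and 8.22 in WT torin1. In AMPK KO it stood at 9.81, 7.35, 8.69 and 8.07 CPM in DMSO, 5.90, 7.43, 6.49 and 6.89 in MK-8722, and 9.28, 8.22, 8.69 and 8.39 in torin1. The WT MK-8722 group had the highest mean and the AMPK KO MK-8722 group the lowest, but both ranges overlapped those of DMSO. The WT rise was 0.44 (SE 0.12, adjusted p = 0.0083), the AMPK KO value -0.34 (SE 0.13, adjusted p = 0.16) and the difference -0.79 (SE 0.18, adjusted p = 0.0032). Of the remaining receptors, Nbr1, a p62 partner, rose with torin1 by 0.65 in WT and 0.66 in AMPK KO, Tax1bp1 rose with torin1 in AMPK KO by 0.41, and Bnip3l was called at baseline alone, lower in AMPK KO by 0.55 (adjusted p = 3.5e-11). Summed over the 7 receptors, TPM came to 587.9 in WT DMSO, 898.1 in WT MK-8722 and 934.7 in WT torin1, and to 677.3, 658.2 and 1213 in the AMPK KO groups. These sums also lack the scaling of the CPM, and differences between them were not tested.

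**Figure D4:**
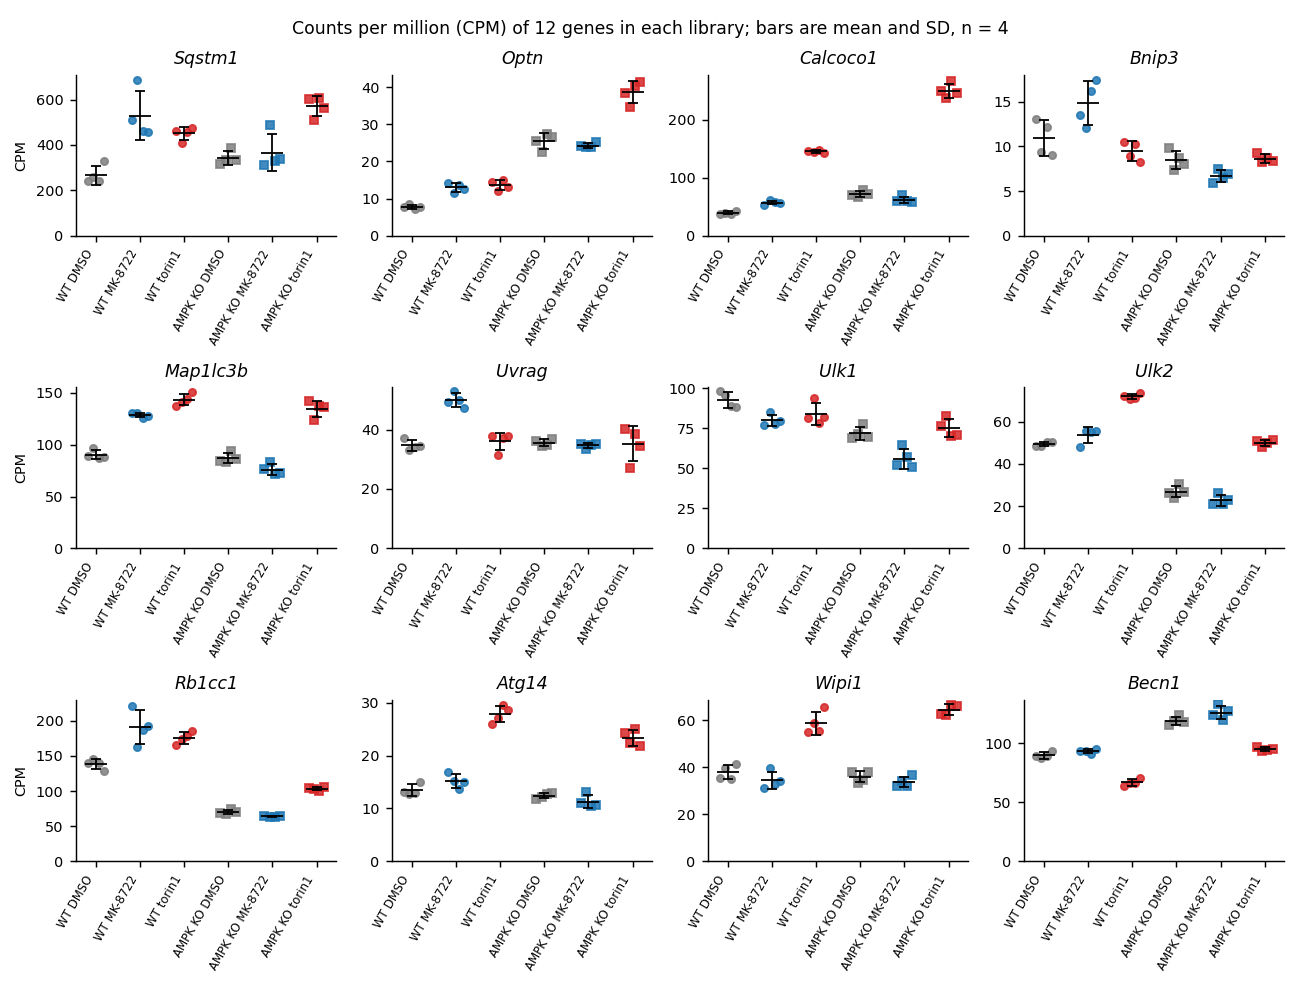
CPM of 12 genes in the 24 libraries, 1 panel a gene, with points for libraries and bars for the mean and SD of 4 libraries in each of the 6 groups. Calcoco1 reaches 249.7 CPM on average in AMPK KO torin1, Uvrag is highest in WT MK-8722 (49.9 CPM), and Becn1 is lowest under torin1 in each genotype (66.9 and 94.8 CPM).

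The 2 drugs were also compared with each other in WT cells. The difference of their means uses no DMSO library, although the estimate of the spread came from all 24 libraries. Of the 42 genes, 11 were higher with torin1 and 13 higher with MK-8722, which is 26.2% and 31.0%, against 24.4% higher and 21.1% lower over all genes tested. The median log2 difference was -0.01, with 0.02 over all genes. Higher with torin1 were Calcoco1 (2.55-fold, adjusted p = 5e-15), Atg14 (log2 0.88), Wipi1 (0.77), Pik3c3 (0.53) and Atg10 (0.52), with Atg16l2, Ulk2, Nbr1, Atg12, Atg2a and Pik3r4 from 0.45 to 0.27. Higher with MK-8722 were 5 of 11 conjugation genes (Atg4d, Atg4a, Atg3, Atg5 and Atg16l1), 3 of 7 membrane supply genes (Atg2b, Vmp1 and Atg9a), Becn1 and Uvrag, Gabarapl1 and Gabarapl2, and Bnip3. Their log2 differences ran from -0.65 for Atg4d and Bnip3 to -0.28 for Atg9a. Fits that left out 1 library ended the calls of Vmp1, Atg9a and Atg16l1 in 3 of 8 each, and of Pik3r4 in 2 of 8. Sqstm1 and Optn did not pass the test, at -0.23 (adjusted p = 0.17) and 0.07 (adjusted p = 0.5).

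Over all comparisons of a drug with DMSO, 11 of the 42 genes were called in none: Ambra1, Atg101, Atg4b, Atg7, Atg9b, Bnip3l, Gabarapl2, Map1lc3a, Rubcn, Vmp1 and Wipi2. The matching share over all genes tested was not computed. Wipi2 and Gabarapl2 were nevertheless among the genes whose MK-8722 response differed between genotypes. For Vmp1, the share of the gene's TPM in a transcript of 931 bases was 26.2% in WT DMSO (22.8 to 28.4) and 40.0% in WT torin1 (37.7 to 42.4), and 15.8% (14.1 to 17.5) and 26.0% (21.7 to 30.6) in AMPK KO, with no test. For Atg7, a transcript of 758 bases held 20.2% of the gene's TPM in AMPK KO DMSO (15.9 to 25.4) and 5.25% in WT DMSO (0 to 8.67). These shares are estimates from reads that transcripts of a gene share.

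Reads shared with other genes may touch some of these values. Counts were farther than 1e-06 from a whole number in at least 1 library for 40 of the 42 genes. They were so in all 24 libraries for 6 (Rb1cc1, Atg9a, Atg4a, Map1lc3b, Gabarapl2 and Bnip3l). Gene counts are sums of transcript estimates, so this can come from reads divided with another gene or from rounding of those estimates. Which of these it was for a gene was not tested, and the levels are uncertain to an unknown extent. Exons of 17 of the 42 genes overlap those of another gene, and for 7 that gene had at least 10% of their count, on the opposite strand in each case (Atg16l2, Atg2b, Atg4d, Atg9a, Atg9b, Map1lc3b and Rubcn). The strand setting of the counting is not given in the sources used here. Zcchc14, the gene across from Map1lc3b, had log2 fold changes of 0.09 with MK-8722 in WT (adjusted p = 0.12) and 0.17 with torin1, less than those of Map1lc3b (0.51 and 0.67). Gskip, across from Atg2b, had -0.30 with torin1 in WT (adjusted p = 0.00067), close to the -0.35 of Atg2b, and Ankzf1, across from Atg9a, had 0.51 against -0.36. Kri1, across from Atg4d, had -0.14 and -0.21 with torin1 in WT and AMPK KO, against -0.53 and -0.435. Fchsd2, across from Atg16l2, had 0.22 and 0.20, against 0.597 and 0.345. Both had more counts than the gene across from them. Fyttd1, across from Rubcn, had -0.51 with torin1 in WT, against -0.06. How far reads of these genes entered the values was not tested.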

How the data were processed

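Libraries of mRNA were made by the authors with a kit that carries molecular identifiers and sequenced as paired reads. The authors ran an RNA-seq workflow with STAR and Salmon on GRCm38, with the identifiers taken into account, and deposited estimated counts and TPM per gene and per transcript. The deposited TPM were used to compare genes with each other and for transcript shares. Levels and sums by role were also printed in TPM for several groups. TPM lack the TMM scaling of the CPM, so differences between groups were tested on counts alone.

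Estimated counts were rounded to whole numbers and filtered with filterByExpr, and libraries were scaled by TMM. A model of 6 group means over all 24 libraries was fitted with edgeR 4.0.16 (quasi-likelihood, robust) in R 4.3.3, as the study also used edgeR. Benjamini-Hochberg adjustment ran over all 15828 tested genes. Calls needed an adjusted p under 0.05 and a change of 1.2-fold or more. Counts of genes with an unadjusted p under 0.05 stand without a share over all genes tested, as none was computed. CPM are on TMM-scaled library sizes. DESeq2 1.42.0, other scalings, filters and thresholds, blocks and left-out libraries were alternatives. The scripts were tested on simulated data with known changes.

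Groups came from the labels. The members, their roles and the other lists were chosen with earlier results of these data known. Values in every library were given for Ulk1, Becn1, Map1lc3b and Sqstm1, for the 4 called members of largest log2 change in each comparison with DMSO and between the genotypes (mean of at least 1 CPM), and for the 3 of largest difference in each interaction. Atg5, Gabarap and Gabarapl1 were added after their values were seen. Gene positions are those of the annotation on GRCm38, and promoter windows and their letters come from RefSeq on GRCm38.p6. Replicate libraries differed beyond sampling noise in all 36 pairs within groups (chi-square per gene 3.52 to 26.5), so none was counted as a duplicate. No comparison columns of the authors were used. An identity of the ATG8 proteins was not computed here.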

Additional observations from a re-analysis of the deposited data

Results flagged for a closer look

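In each of 6 groups of 4 libraries, the value of each of the 14 genes given per library by rule was checked for 1 library apart from the other three. Of 84 checks 5 found one, and chance alone gives about 1 in 20. In AMPK KO MK-8722, replicate 2 stood apart for Sqstm1 (487.6 CPM) and for Calcoco1 (69.74 CPM), and replicate 4 for Atg10 (2.028 CPM). Replicate 2 of WT torin1 stood low for Uvrag (31.57 CPM), and replicate 1 of WT MK-8722 stood low for Ulk2 (47.85 CPM). AMPK KO MK-8722 replicate 2 is the library of passage 16, the earliest of its genotype.

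The response to MK-8722 differed between the genotypes, by edgeR's test of the interaction, at 16 of the 42 genes. Log2 differences (AMPK KO response minus WT response) were -0.885 for Sqstm1, -0.82 for Optn, -0.789 for Bnip3, -0.755 for Calcoco1, -0.472 for Nbr1 and -0.267 for Tax1bp1 among the receptors, and -0.707 for Map1lc3b, -0.687 for Gabarapl1, -0.494 for Gabarap and -0.279 for Gabarapl2 in the ATG8 family. In the earlier steps they were -0.598 for Rb1cc1, -0.359 for Ulk2, -0.558 for Uvrag and -0.4 for Pik3c3. Positive differences were 0.427 for Wipi2 and 0.296 for Atg5. The response to torin1 differed at 1 gene, Ulk2, by 0.35.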

How the results depend on the processing

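Counts of called genes are over the 42, all directions together. The matching shares over all genes tested are not given for these settings. These counts therefore do not show whether the 42 differ from all genes under them. With the adjusted p alone as the rule, MK-8722 in WT gave 20 in place of 12, MK-8722 in AMPK KO 4 in place of 1 and the torin1 interaction 4 in place of 1. With a fold change of at least 1.5 the counts were 2 (MK-8722 in WT), 0 (MK-8722 in AMPK KO), 12 in place of 24 (torin1 in WT), 11 in place of 23 (torin1 in AMPK KO), 6 in place of 21 (AMPK KO against WT), 7 in place of 24 (torin1 against MK-8722), 7 in place of 16 (MK-8722 interaction) and 0 (torin1 interaction). A test against a fold of 1.2 gave 0 for MK-8722 in AMPK KO, 8 for the MK-8722 interaction and 0 for the torin1 interaction. For that last result, scaling by total counts gave 0, and no filter, a minimum of 10 counts in every library, an offset for transcript length, a fit of the compared libraries alone and DESeq2 each gave 2; the cause was not tested. Leaving out 1 library at a time gave 10 to 15 for MK-8722 in WT, 1 to 6 for MK-8722 in AMPK KO, 22 to 25 and 20 to 22 for torin1 in WT and AMPK KO, 21 to 23 for AMPK KO against WT, 22 to 25 for torin1 against MK-8722, 14 to 17 for the MK-8722 interaction and 0 to 2 for the torin1 interaction (0 without WT torin1 replicate 1, 2 without WT DMSO replicate 3 or 4, WT torin1 replicate 2, or AMPK KO DMSO replicate 2 or 3). Where this last count stayed at 1, the gene was not always Ulk2. It was Atg16l2, with a lower response in AMPK KO, without WT torin1 replicate 3, AMPK KO DMSO replicate 4, or AMPK KO torin1 replicate 2 or 4. Without the earliest passage of each genotype, chosen after seeing the data, MK-8722 in AMPK KO gave 3 (Atg13 and Atg101 beside Ulk1). That fit also called Ulk1 lower with MK-8722 in WT (log2 -0.27, adjusted p = 0.0064 by edgeR), with Vmp1 and Atg10 higher. It added Atg13, Atg14 and Atg10 to the genes with a lower MK-8722 response in AMPK KO, and 4 of 122 calls were lost. Under scaling by total counts the all-gene median was 0.136 and 0.117 on the log2 scale for torin1 in WT and AMPK KO and 0.118 for torin1 against MK-8722, with 19 higher and 5 lower, 22 and 4, and 12 and 10 of the 42. The share of higher genes among all called moved from 55.7% to 67.5% for torin1 in WT, from 54.3% to 67.4% for AMPK KO against WT and from 53.6% to 65.4% for torin1 against MK-8722. It moved from 58.8% to 42.5% for the torin1 interaction. Of 122 calls of a gene in a comparison, none reversed under any alternative run; 59 of 1112 values with 1 library left out lost the call, and 11 of 122 did under total counts. The replicate numbers do not pair the libraries: of 60 pairs of the same number in different groups, 5 had deviations correlated above 0.1 (-0.196 to 0.25), and 6 of 24 libraries were most like one of their own number. With that number as a block the counts were 13 for MK-8722 in WT and as reported for the rest. Libraries of the same passage deviated together more often, with 15 of 24 pairs above 0.1 (median 0.129) and 18 of 24 libraries most like their own passage, against 0 of 72 pairs of different passages. The passage block gave 13 for MK-8722 in WT, 2 for MK-8722 in AMPK KO and 18 for the MK-8722 interaction, changed no other count, and ended no call. Depth limits Atg9b and Atg10, the genes of fewest reads.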

Other observations

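Beyond the 42 genes, 32 further genes of autophagy were examined: 14 of fusion with the lysosome, 12 further selective receptors and adaptors, and 6 further early factors. These, too, were chosen with earlier results of these data known. With MK-8722 in WT, 8 rose (25%, against 9.96% of all genes tested) and none fell (5.6% of all genes) by edgeR or DESeq2, and 19 of the 32 had an unadjusted p under 0.05. In AMPK KO none was called by either tool (0.809% higher and 0.651% lower over all genes), with 5 at an unadjusted p under 0.05. Retreg1, which encodes the receptor FAM134B for turnover of the endoplasmic reticulum, stood at 18.1 ± 1.69 CPM in WT DMSO (SD, n = 4), 36.52 ± 2.103 in WT MK-8722 and 32.0 ± 4.78 in WT torin1. In AMPK KO it stood at 48.5 ± 3.58 CPM in DMSO, 48.0 ± 4.94 in MK-8722 and 76.8 ± 7.13 in torin1. Its log2 change with MK-8722 was 1.02 in WT (SE 0.10, adjusted p = 5.1e-08), and the response in AMPK KO was lower by 1.03 on the log2 scale (adjusted p = 1.1e-05). Vps11 and Vps18, core subunits of the HOPS tethering complex that joins autophagosomes and lysosomes, rose in WT with MK-8722 by 0.51 and 0.42.

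With torin1, 12 of the 32 rose and 8 fell in WT (37.5% and 25%, against 26.5% and 21.1% of all genes tested), and 12 rose and 5 fell in AMPK KO (37.5% and 15.6%, against 25.8% and 17.5%). Wdr45, which encodes the phosphoinositide reader WIPI4, rose by 1.13 and 1.16 on the log2 scale in the 2 genotypes, and Ccpg1, a receptor of the endoplasmic reticulum, by 1.03 and 1.17. Wdr45b, the paralog of Wdr45, fell by 0.55 and 0.46, and the SNARE gene Ykt6 by 0.83 and 0.62. None of the 32 differed between the genotypes in its torin1 response by edgeR or DESeq2 (4.19% and 2.93% of all genes did, higher and lower), with 6 at an unadjusted p under 0.05, and 8 had a lower MK-8722 response in AMPK KO (25%, against 7.56% of all genes). Between the DMSO groups 4 were higher and 9 lower in AMPK KO (12.5% and 28.1%, against 30.8% and 25.9% of all genes), a balance that turned to 7 higher and 4 lower under scaling by total counts and moved to 2 higher and 15 lower with no filter on low counts.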
